A study of Mus musculus with 16 samples.

Results

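The 9 genes described here are Marco, Cd14, Mrc1, Msr1, Csf2ra, Csf2rb, Csf1r, Itgax and Cd68, a set of receptors and surface or lysosomal proteins that are commonly read as lung macrophage genes. They were taken as every feature of the array whose platform gene symbol is 1 of these names, which gave 13 features for 9 of 9 genes, among 62976 features in all. All 13 features and all 9 genes passed the filter on low values, and they are 9 of the 20166 genes tested. RNA came from whole lung homogenate of mouse pups at postnatal day 3, hybridised to a one-colour Agilent microarray with 1 array per sample and 4 arrays per group. The first group was labelled Fgf10+/- (heterozygous for fibroblast growth factor 10, a mesenchymal signal for lung epithelium) and was kept in 85% oxygen in a chamber from day 0 to day 3, and the second was Fgf10+/- in normoxia. The third group was wild type in the same hyperoxia, and the fourth was wild type in normoxia. The sources used here do not give the kind of Fgf10 allele, the strain, the litters or any pooling of pups. All values are log2 intensities as the authors deposited them, so a difference of 1 is a doubling.

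Macrophages take up particles, dying cells and surfactant, and the lung holds several kinds of them. In the newborn mouse, fetal monocytes that have reached the lung mature into alveolar macrophages in the days after birth, and this maturation needs granulocyte-macrophage colony-stimulating factor (GM-CSF), which signals through a receptor made of Csf2ra and the shared beta chain Csf2rb. A second growth factor receptor, Csf1r, binds CSF1 and IL-34 and supports monocytes and most tissue macrophages. Marco and Msr1 are scavenger receptors, Mrc1 is the mannose receptor, Cd14 is the coreceptor for bacterial lipopolysaccharide, Itgax encodes the integrin CD11c, and Cd68 encodes a glycoprotein of late endosomes and lysosomes.

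Replicate arrays of a group correlated over all tested genes with r between 0.974 and 0.983, and precision is limited by having 4 arrays in each group. The labels do not say that replicates came from separate litters, so a p-value here speaks for the spread among these arrays alone, which may be technical. No difference in Fgf10 itself between pups labelled Fgf10+/- and wild-type pups passed the test. Its log2 intensity was 7.39 to 7.96 in Fgf10+/- hyperoxia, 7.88 to 8.66 in Fgf10+/- normoxia, 7.64 to 8.07 in wild-type hyperoxia and 7.24 to 8.14 in wild-type normoxia. The difference between Fgf10+/- and wild type was -0.21 (SE 0.20, adjusted p = 0.835) in hyperoxia and 0.48 (SE 0.20, adjusted p = 0.334) in normoxia, that is, lower and then higher without passing. Under hyperoxia Fgf10 fell by 0.64 (SE 0.20, adjusted p = 0.0346) in Fgf10+/- pups and differed by 0.06 (SE 0.20, adjusted p = 0.897) in wild-type pups. Where the features lie relative to the altered part of the gene is unknown here, so the genotype is called by its label throughout. In 1 array, wild-type normoxia replicate 4, 6 skeletal muscle genes averaged 8.17, against 4.69 to 5.57 in the other 15 arrays. Without that array, the differences between hyperoxia and normoxia in wild type were 1.58 for Marco, 1.26 for Cd14 and -0.83 for Csf2ra, all still past the threshold. The tissue is a mixture, so fewer cells of a type and less RNA per cell cannot be told apart in any value below.

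In hyperoxia, Marco and Cd14 rose and Csf2ra fell, in both genotypes, and the other 6 genes did not pass the test in either. With limma and Benjamini-Hochberg adjustment over all tested genes, 3 of 9 genes passed in Fgf10+/- pups, where 23.8% of all tested genes passed, and 3 of 9 passed in wild-type pups, where 19.1% of all tested genes passed. Genes that rose made up 13% of all genes in Fgf10+/- pups and 10.3% in wild-type pups, and genes that fell made up 10.7% in Fgf10+/- pups and 8.75% in wild-type pups. With 2 genes higher and 1 lower of 9, the share that changed is not far from that of the array as a whole. Marco ranked 33rd from the top of 20166 differences in Fgf10+/- pups and 31st in wild-type pups, and Cd14 ranked 155th in Fgf10+/- pups and 124th in wild-type pups. The median difference of the 9 genes was 0.17 in Fgf10+/- pups and 0.18 in wild-type pups, beside 0.03 over all tested genes in each.

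**Figure D1:**
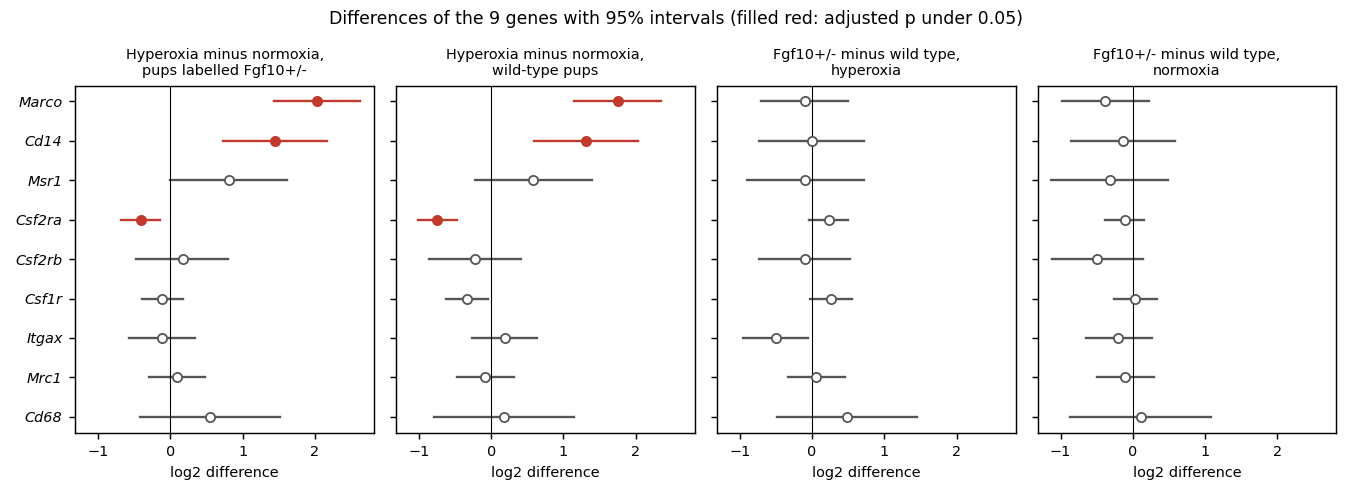
Differences in log2 intensity for the 9 genes, with 95% intervals, between hyperoxia and normoxia and between Fgf10+/- and wild type (4 arrays per group). Marco and Cd14 lie to the right of 0 and Csf2ra to the left in both genotypes under hyperoxia, while none of the 9 passed the test between genotypes.

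Marco and Csf2ra, which changed in opposite directions in both genotypes, are shown with the 300 bases around their gene starts (250 before and 50 after), from the RefSeq promoter table of GRCm38.p6. That table held 5 of the 9 genes. Marco lies on chromosome 1 and its window is chr1:120504975-120505274 on the minus strand. Csf2ra lies on chromosome 19 and its window is chr19:61228369-61228668 on the minus strand. Both are written 5′ to 3′ on the gene's strand, and capitals mark matches to the myeloid factor PU.1 motif (GAGGAAG) or the NF-kB motif (GGGA and CC with any 4 bases between them), each searched on both strands.

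Marco: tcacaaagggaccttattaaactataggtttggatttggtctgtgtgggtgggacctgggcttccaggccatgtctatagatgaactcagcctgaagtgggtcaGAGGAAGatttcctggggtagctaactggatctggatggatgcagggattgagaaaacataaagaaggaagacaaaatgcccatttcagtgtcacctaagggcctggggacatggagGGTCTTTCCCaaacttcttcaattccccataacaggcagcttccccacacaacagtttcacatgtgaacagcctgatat

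Csf2ra: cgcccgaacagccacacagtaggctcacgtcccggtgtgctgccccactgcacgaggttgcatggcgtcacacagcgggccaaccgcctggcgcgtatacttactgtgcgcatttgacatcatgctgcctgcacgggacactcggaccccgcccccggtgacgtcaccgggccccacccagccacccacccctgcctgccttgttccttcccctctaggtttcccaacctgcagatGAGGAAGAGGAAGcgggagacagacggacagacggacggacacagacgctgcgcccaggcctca

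The Marco window held 1 PU.1 match, with its first base 146 bases before the gene start, and 1 NF-kB match on the opposite strand, 29 bases before it. The Csf2ra window held 2 PU.1 matches, starting 14 and 8 bases before the start that the promoter table uses and overlapping by 1 base, and no NF-kB match. RefSeq's outermost start of Csf2ra lies 43 bases upstream of that start, so both matches lie within the gene's longest annotated span, whereas for Marco the starts coincide. An NRF2 motif (TGACNNNGC), the element read by the oxidant-response factor, was not found in either window. Among 32851 promoter windows of the same length, 13.6% held the PU.1 motif, 20.7% the NF-kB motif and 12.4% the NRF2 motif, so a match is a description of the letters and not of binding.

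Marco encodes a scavenger receptor with a collagenous domain that binds unopsonised particles and bacteria. In Fgf10+/- pups its log2 intensity was 10.16, 10.60, 10.88 and 10.88 in hyperoxia, against 8.84, 8.85, 8.76 and 7.95 in normoxia. In wild-type pups it was 10.61, 10.46, 11.02 and 10.82 in hyperoxia, against 9.74, 8.60, 9.11 and 8.47 in normoxia. Every hyperoxia array was above every normoxia array of either genotype, and the Fgf10+/- normoxia array at 7.95 stood below its group. Marco rose by 2.03 (SE 0.28, 95% interval 1.43 to 2.63, adjusted p = 0.000148) or 4.08-fold in Fgf10+/- pups. It rose by 1.75 (SE 0.28, 95% interval 1.15 to 2.35, adjusted p = 0.00063) or 3.36-fold in wild-type pups. The low array also had the lowest summary of alveolar macrophage markers in its group, a mean of 8.71 over 15 genes beside 9.19 to 9.43 in the other arrays. That was not particular to this list. The same array was lowest of its group for leukocyte genes (9.28), monocyte (8.86), neutrophil (7.44) and epithelial markers (11.53) and lysosome genes (10.53). Its mean of fibroblast markers (12.35) and its value of the alveolar marker Cidec (5.69) were the highest of the group. The part of these lists in the Marco value was not tested. Without that array the Marco difference still passed (adjusted p = 0.000557).

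Cd14 is made by monocytes, macrophages and neutrophils, and which cells of the lung homogenate gave its signal was not tested. Its log2 intensity in Fgf10+/- pups was 10.39, 8.94, 8.78 and 8.83 in hyperoxia, against 8.37, 7.80, 7.78 and 7.20 in normoxia. In wild-type pups it was 9.30, 9.70, 9.01 and 8.94 in hyperoxia, against 8.18, 7.60, 8.15 and 7.79 in normoxia. As for Marco, all 8 hyperoxia arrays were above all 8 normoxia arrays, and the Fgf10+/- hyperoxia array at 10.39 was well above the rest of its group. Cd14 rose by 1.45 (SE 0.34, 95% interval 0.73 to 2.17, adjusted p = 0.00596) or 2.73-fold in Fgf10+/- pups and by 1.31 (SE 0.34, 95% interval 0.59 to 2.03, adjusted p = 0.0136) or 2.48-fold in wild-type pups. In the array at 10.39, the 14 leukocyte genes averaged 9.95 beside 9.35 to 9.38 in the other arrays of the group, and 17 macrophage activation genes averaged 7.66 beside 6.62 to 6.95. The leukocyte excess was not particular to this array. In each of the 4 groups the array numbered 1 had the highest leukocyte mean, and in Fgf10+/- normoxia it also averaged 9.95, with Cd14 at 8.37. Without the array at 10.39, Cd14 still passed the test in Fgf10+/- pups (adjusted p = 0.00916).

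**Figure D2:**
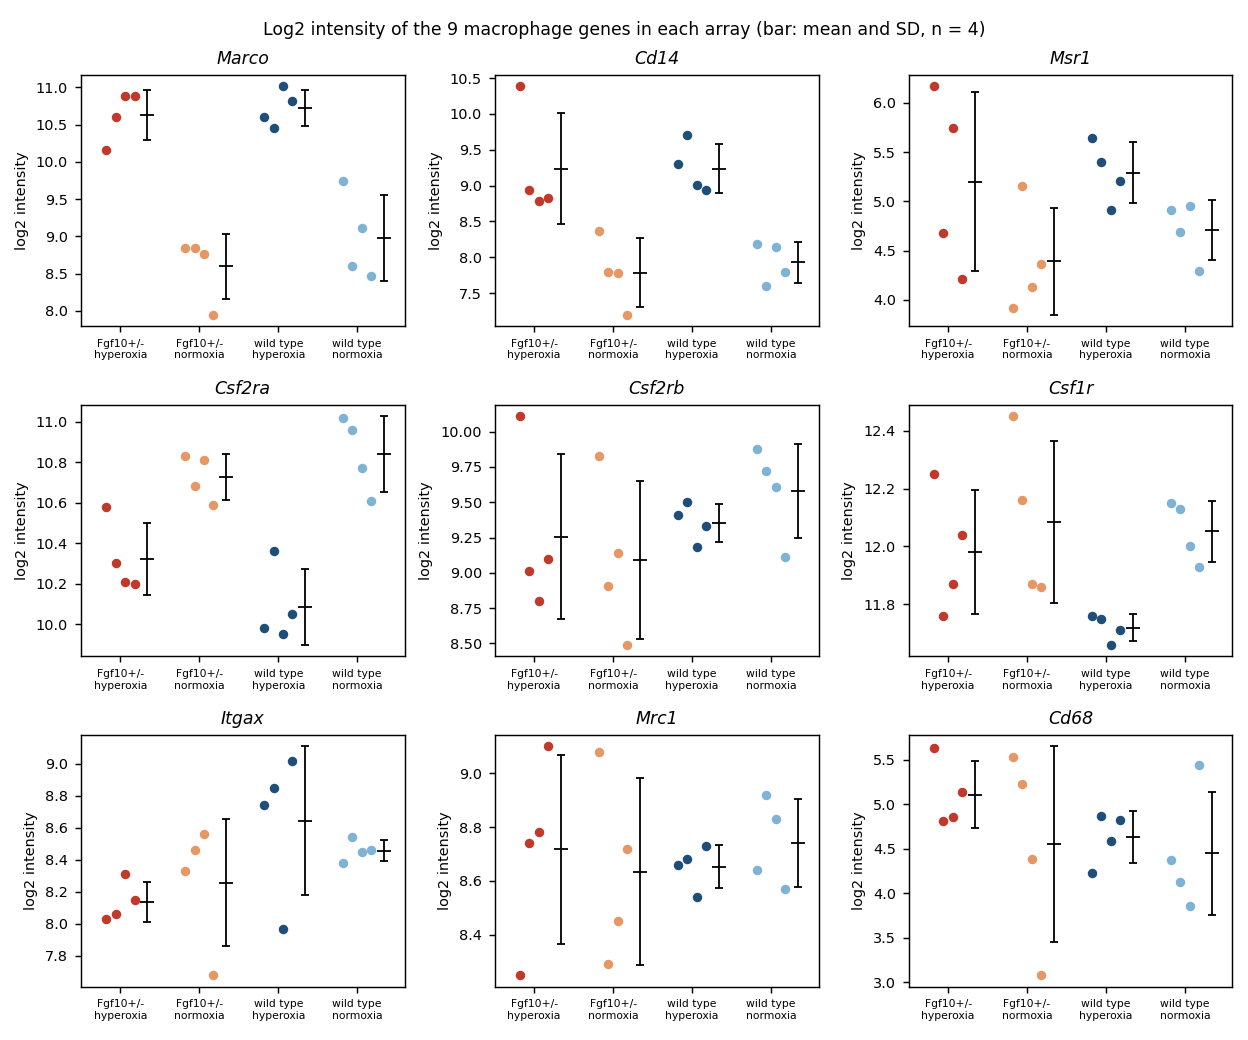
Log2 intensity of each of the 9 genes in each array (points) with the mean and SD of the group (bars), for Fgf10+/- hyperoxia, Fgf10+/- normoxia, wild-type hyperoxia and wild-type normoxia from left to right, 4 arrays each. For Marco and Cd14 the hyperoxia and normoxia points do not overlap, for Csf2ra they do not overlap in the other direction, and for Mrc1 all 4 groups overlap.

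The other pair of uptake receptors did not pass. Mrc1 binds mannose-bearing glycoproteins, and its group means were 8.72 ± 0.35 in Fgf10+/- hyperoxia and 8.63 ± 0.35 in Fgf10+/- normoxia, and 8.65 ± 0.08 in wild-type hyperoxia and 8.74 ± 0.16 in wild-type normoxia (SD, n = 4 each). The 95% interval of its difference was -0.30 to 0.48 in Fgf10+/- pups (adjusted p = 0.79) and -0.47 to 0.31 in wild-type pups (adjusted p = 0.816). Msr1, the class A scavenger receptor for modified lipoproteins, averaged 5.20 ± 0.91 in Fgf10+/- hyperoxia and 4.39 ± 0.54 in Fgf10+/- normoxia, and 5.29 ± 0.31 in wild-type hyperoxia and 4.71 ± 0.30 in wild-type normoxia (SD, n = 4 each). Its differences of 0.81 (SE 0.38, adjusted p = 0.147) in Fgf10+/- pups and 0.58 (SE 0.38, adjusted p = 0.334) in wild-type pups did not pass. A second feature of Msr1 gave 0.69 in Fgf10+/- pups and 0.76 in wild-type pups, also without passing. Msr1 lay near the array median of 4.50, where low signals limit what can be read, as did Cd68.

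Both chains of the GM-CSF receptor were measured, and they differed in what the test found. Csf2ra, the ligand-binding alpha chain, had log2 intensities of 10.58, 10.30, 10.21 and 10.20 in Fgf10+/- hyperoxia, against 10.83, 10.68, 10.81 and 10.59 in Fgf10+/- normoxia. In wild-type pups they were 9.98, 10.36, 9.95 and 10.05 in hyperoxia, against 11.02, 10.96, 10.77 and 10.61 in normoxia. The groups did not overlap in either genotype, although in Fgf10+/- pups the nearest arrays were only 0.02 apart. Csf2ra changed by -0.41 (SE 0.13, 95% interval -0.68 to -0.14, adjusted p = 0.0298), 1.33-fold lower, in Fgf10+/- pups. It changed by -0.75 (SE 0.13, 95% interval -1.02 to -0.48, adjusted p = 0.000901), 1.68-fold lower, in wild-type pups. The call in Fgf10+/- pups was lost in 7 of 25 alternatives, 6 of which left out 1 array (hyperoxia replicate 2, 3 or 4, or normoxia replicate 1, 2 or 3), with an adjusted p of up to 0.0791. The call in wild-type pups held in 25 of 25.

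Csf2rb, the signalling chain shared with the IL-3 and IL-5 receptors, overlapped between all groups. It averaged 9.26 ± 0.58 in Fgf10+/- hyperoxia and 9.09 ± 0.56 in Fgf10+/- normoxia, and 9.36 ± 0.14 in wild-type hyperoxia and 9.58 ± 0.33 in wild-type normoxia (SD, n = 4 each). The 95% interval of its difference was -0.47 to 0.80 in Fgf10+/- pups (adjusted p = 0.749) and -0.86 to 0.41 in wild-type pups (adjusted p = 0.67), so each interval includes the Csf2ra difference of its genotype. A second, dimmer Csf2rb feature gave -0.43 in Fgf10+/- pups (adjusted p = 0.318 when all features were tested), opposite in sign to the feature above. In wild-type pups it gave -0.26 (adjusted p = 0.601). Csf2rb has a near-identical neighbour in the mouse, Csf2rb2, and how far the Csf2rb features read both was not tested.

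Csf1r had the lowest standard deviation of the 9 genes over all 16 arrays (0.22). Its log2 intensity was 12.25, 11.76, 11.87 and 12.04 in Fgf10+/- hyperoxia, against 12.45, 12.16, 11.87 and 11.86 in Fgf10+/- normoxia. In wild-type pups it was 11.76, 11.75, 11.66 and 11.71 in hyperoxia, against 12.15, 12.13, 12.00 and 11.93 in normoxia. The groups overlapped in Fgf10+/- pups and not in wild-type pups, where the difference was -0.33 (SE 0.14, 95% interval -0.62 to -0.04) and did not pass (adjusted p = 0.11). Of 2 further, dimmer Csf1r features, 1 passed in wild-type pups when all features were tested (-0.69, adjusted p = 0.0291) and the other did not (-0.62, adjusted p = 0.0823). In Fgf10+/- pups the 3 features gave -0.11, -0.21 and -0.42 and none passed. Averaging the features of the gene gave a difference of -0.55 in wild-type pups that passed (adjusted p = 0.0326).

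The genes for the ligands of these receptors were higher in hyperoxia for GM-CSF and IL-34. Csf2, which encodes GM-CSF, had log2 intensities of 7.30, 7.35, 7.48 and 7.10 in Fgf10+/- hyperoxia, against 6.05, 5.85, 5.46 and 5.89 in Fgf10+/- normoxia. In wild-type pups they were 7.51, 8.19, 7.50 and 7.62 in hyperoxia, against 6.53, 6.66, 6.21 and 6.60 in normoxia. All hyperoxia arrays were above all normoxia arrays. Csf2 rose by 1.49 (SE 0.17, adjusted p = 3.6e-05) in Fgf10+/- pups and by 1.20 (SE 0.17, adjusted p = 0.000254) in wild-type pups, so the ligand rose where Csf2ra fell. Il34, a ligand of Csf1r, rose by 1.10 (SE 0.19, adjusted p = 0.000896) in Fgf10+/- pups and by 1.00 (SE 0.19, adjusted p = 0.00235) in wild-type pups, again without overlap within a genotype. Csf1, the other ligand of Csf1r and named here after its values were seen, differed by 0.32 (SE 0.24, adjusted p = 0.391) in Fgf10+/- pups and 0.41 (SE 0.24, adjusted p = 0.28) in wild-type pups, which did not pass.

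**Figure D3:**
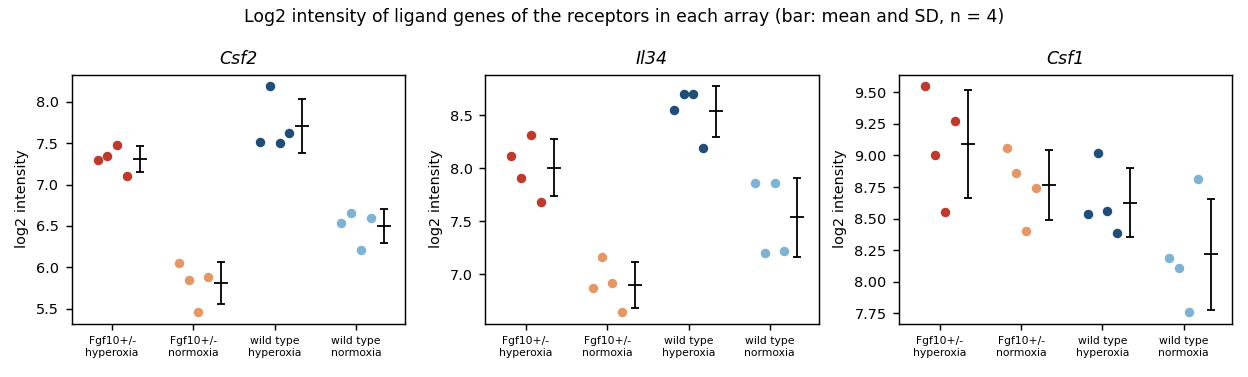
Log2 intensity of Csf2, Il34 and Csf1, the genes of the growth factors that bind the receptors, in each array (points) with group means (bars), 4 arrays per group. Csf2 and Il34 are higher in hyperoxia than in normoxia within each genotype, while the Csf1 groups overlap.

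Itgax and Cd68 complete the set. Itgax averaged 8.14 ± 0.13 in Fgf10+/- hyperoxia and 8.26 ± 0.39 in Fgf10+/- normoxia, and 8.64 ± 0.46 in wild-type hyperoxia and 8.46 ± 0.06 in wild-type normoxia (SD, n = 4 each), with differences of -0.12 (SE 0.21, adjusted p = 0.751) in Fgf10+/- pups and 0.19 (SE 0.21, adjusted p = 0.617) in wild-type pups. Cd68 averaged 5.10 ± 0.38 in Fgf10+/- hyperoxia and 4.55 ± 1.09 in Fgf10+/- normoxia, and 4.62 ± 0.29 in wild-type hyperoxia and 4.45 ± 0.69 in wild-type normoxia (SD, n = 4 each). Neither passed, and for Cd68 the 95% intervals were wide, -0.42 to 1.52 in Fgf10+/- pups and -0.79 to 1.15 in wild-type pups. Exact two-sided permutation tests of the array labels, 36 in all over the 9 genes and 4 comparisons of groups, reached the smallest p that 4 against 4 arrays allow (0.0286) in 8 cases, all of them cases without overlap. Those were Marco, Cd14 and Csf2ra under hyperoxia in each genotype, Csf1r under hyperoxia in wild type, and Csf1r between genotypes in hyperoxia. Groups of a tested gene did not overlap under hyperoxia for 24.9% of all genes in Fgf10+/- pups and for 24.8% in wild-type pups.

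Between genotypes, 0 of 9 genes passed in limma. In hyperoxia 0.412% of all tested genes passed, and in normoxia 0.719% did. At an unadjusted p under 0.05, which took in 9.01% of all genes in hyperoxia and 12.9% in normoxia, 1 of the 9 was below the threshold: Itgax in hyperoxia, where Fgf10+/- was lower by -0.50 (SE 0.21, 95% interval -0.96 to -0.05, unadjusted p = 0.0327, adjusted p = 0.49). Csf1r in hyperoxia did not overlap between Fgf10+/- and wild type, as 5.99% of all tested genes did not, and differed by 0.26 (SE 0.14, adjusted p = 0.619). The nearest Csf1r arrays were level as printed, with 11.76 both the lowest Fgf10+/- and the highest wild-type value. In normoxia none of the 9 was free of overlap, against 7.53% of all tested genes. The test of whether the response to oxygen differed between genotypes passed for 0 of 9 and for 0% of all genes. At an unadjusted p under 0.05 it took in 6.61% of all genes and none of the 9. For Csf2ra the response differed by 0.34 (SE 0.18, 95% interval -0.04 to 0.73, adjusted p = 0.779), and for Marco by 0.28 (SE 0.40, 95% interval -0.57 to 1.13, adjusted p = 0.928).

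Other genes read as markers of the same cells did not move as 1 block with the 9. The counts of each list stand beside the shares over all tested genes. Of these, 13% rose and 10.7% fell in Fgf10+/- pups, and 10.3% rose and 8.75% fell in wild-type pups. Of 15 alveolar macrophage markers measured, 5 rose and 3 fell in Fgf10+/- pups, and 4 rose and 3 fell in wild-type pups. Over the alternatives the count that rose ran from 4 to 6 in Fgf10+/- pups and from 1 to 4 in wild-type pups. The count that fell ran from 3 to 4 in each genotype. The median of the list was 0.34 in Fgf10+/- pups and 0.23 in wild-type pups beside 0.03 over all genes. Those that fell included Ear2, an eosinophil-associated ribonuclease, by 0.75 (SE 0.15, adjusted p = 0.00257) in Fgf10+/- pups and 1.24 (SE 0.15, adjusted p = 0.000101) in wild-type pups. They also included Siglecf, the sialic acid-binding receptor that defines mouse alveolar macrophages and is shared with eosinophils, which was named after its values were seen. Siglecf fell by 1.42 (SE 0.28, adjusted p = 0.00188) in Fgf10+/- pups and by 1.58 (SE 0.28, adjusted p = 0.0012) in wild-type pups, opposite in sign to Marco. Plet1 rose by 1.02 (SE 0.16, adjusted p = 0.000418) in Fgf10+/- pups and 0.87 (SE 0.16, adjusted p = 0.00174) in wild-type pups, and the lipid-droplet gene Cidec fell by 1.60 (SE 0.26, adjusted p = 0.000765) in wild-type pups while in Fgf10+/- pups its difference was -0.58 (adjusted p = 0.132). Lpl, lipoprotein lipase, rose by 0.76 (SE 0.11, adjusted p = 0.000203) in Fgf10+/- pups, and its difference in wild-type pups was 0.26 (adjusted p = 0.126). Between genotypes in normoxia, Ear2 and Cidec were lower in Fgf10+/- pups, by -0.88 (adjusted p = 0.0175) and -1.26 (adjusted p = 0.0462), and in hyperoxia Krt79 was lower, at 6.44 in Fgf10+/- against 7.05 in wild type (adjusted p = 0.0405). These genotype calls held in 20 of 25 alternatives for Ear2, 9 for Cidec and 10 for Krt79, and were lost when single arrays were left out. Averaging the features of Plet1 gave 0.36 in wild-type pups, which did not pass (adjusted p = 0.0818).

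Markers of interstitial and other resident macrophages split by genotype in the count of calls, 3 rising and 1 falling of 18 in Fgf10+/- pups and 0 of 18 in wild-type pups, but the genotype by oxygen test passed for none of them. Over the alternatives the count that rose ran from 1 to 6 in Fgf10+/- pups and from 0 to 2 in wild-type pups. Apoe, apolipoprotein E, was the least stable of the 3, at 0.63 (SE 0.21, adjusted p = 0.0447) in Fgf10+/- pups with a call held in 10 of 25. In Fgf10+/- pups Pf4 rose by 1.08 (SE 0.20, adjusted p = 0.00133), and its difference in wild-type pups was 0.57 (adjusted p = 0.0613). Lyve1 rose by 0.86 (SE 0.27, adjusted p = 0.0311) in Fgf10+/- pups and Maf, a transcription factor of resident macrophages, fell by 0.52 (SE 0.16, adjusted p = 0.0331), with calls held in 19 of 25 alternatives for Lyve1 and 18 for Maf, lost without single arrays of either Fgf10+/- group and with replicate number as a block. Of 10 monocyte markers, 2 fell in Fgf10+/- pups and 4 in wild-type pups, and none rose. Vcan, the matrix proteoglycan versican, which fibroblasts also make, fell by 1.59 (SE 0.25, adjusted p = 0.000389) in Fgf10+/- pups and 1.38 (SE 0.25, adjusted p = 0.00146) in wild-type pups, values which averaging its features took to -0.71 in Fgf10+/- pups and -0.66 in wild-type pups. Spn, the sialoglycoprotein CD43, fell by 1.12 (SE 0.15, adjusted p = 0.000128) in Fgf10+/- pups and 0.94 (SE 0.15, adjusted p = 0.000646) in wild-type pups. Lists of other lung cells moved as well: of 7 fibroblast markers Col1a2 and Pdgfra fell in each genotype, and of 9 epithelial markers 3 rose in Fgf10+/- pups and 1 in wild-type pups. Of 9 lymphatic and other endothelial markers, Pecam1 and Cdh5 fell in each genotype, Flt4 fell in wild-type pups only, and Pdpn rose in each genotype. The mean of the fibroblast markers ran from 11.68 to 12.04 in Fgf10+/- hyperoxia, against 12.22 to 12.35 in Fgf10+/- normoxia, and from 11.56 to 11.85 in wild-type hyperoxia, against 11.91 to 12.25 in wild-type normoxia. The mean of the epithelial markers ran from 11.88 to 12.02 in Fgf10+/- hyperoxia, against 11.53 to 11.64 in Fgf10+/- normoxia. In wild-type pups it ran from 12.03 to 12.18 in hyperoxia, against 11.82 to 12.06 in normoxia. Fgf10+/- arrays thus lay below wild-type arrays in normoxia, before any response to oxygen. Of the 9 epithelial markers, Ager passed as lower in Fgf10+/- pups in normoxia. Over 25 alternatives the count of these markers that were lower ran from 0 to 2, and none passed in the fit of only the groups compared. The part of these cells in the values above was not tested. Of 11 neutrophil markers 1 fell in each genotype, the receptor Csf3r, by 0.80 (SE 0.12, adjusted p = 0.000211) in Fgf10+/- pups and 0.50 (SE 0.12, adjusted p = 0.00768) in wild-type pups, and none of 10 dendritic cell markers passed.

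Of 14 general leukocyte genes, 2 fell in Fgf10+/- pups, and 1 rose and 1 fell in wild-type pups. Lyz2 (lysozyme 2, a myeloid product that lung type 2 cells also make) fell by 0.82 (SE 0.21, adjusted p = 0.0111) in Fgf10+/- pups and by 1.44 (SE 0.21, adjusted p = 0.000338) in wild-type pups. Itgam, the integrin CD11b, fell by 0.51 (SE 0.17, adjusted p = 0.0444) in Fgf10+/- pups, a call held in 13 of 25 alternatives and turned in sign (0.05) when its features were averaged. Laptm5, a lysosomal protein of blood cells, rose by 0.70 (SE 0.20, adjusted p = 0.0218) in wild-type pups, held in 20 of 25, and differed by 0.48 (SE 0.20, adjusted p = 0.0978) in Fgf10+/- pups. The mean of these leukocyte genes ran from 9.35 to 9.95 in Fgf10+/- hyperoxia, from 9.28 to 9.95 in Fgf10+/- normoxia, from 9.36 to 9.62 in wild-type hyperoxia and from 9.24 to 9.86 in wild-type normoxia, so its groups overlapped. All 7 MHC class II antigen presentation genes fell in Fgf10+/- pups and 5 of 7 in wild-type pups, with a median of -1.31 in Fgf10+/- pups and -1.16 in wild-type pups. Of 13 lysosome genes, which the Cd68 protein shares a compartment with, 7 rose and 1 fell in Fgf10+/- pups and 6 rose in wild-type pups. Across the alternatives the count that rose ran from 5 to 7 in Fgf10+/- pups and from 3 to 6 in wild-type pups. The median of these lysosome genes was 0.47 in Fgf10+/- pups and 0.31 in wild-type pups. Examples are Ctsl, a cathepsin, at 0.59 (SE 0.08, adjusted p = 0.000101) in Fgf10+/- pups and 0.35 (SE 0.08, adjusted p = 0.00564) in wild-type pups, and Lamp1 at 0.53 (SE 0.08, adjusted p = 0.000229) in Fgf10+/- pups and 0.43 (SE 0.08, adjusted p = 0.00154) in wild-type pups.

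Of 17 other scavenger, phagocytic and pattern receptors, 3 rose and 3 fell in Fgf10+/- pups and 1 rose and 4 fell in wild-type pups, so the list held calls in both directions. Colec12, a scavenger collectin, fell by 1.21 (SE 0.16, adjusted p = 0.000117) in Fgf10+/- pups and 0.85 (SE 0.16, adjusted p = 0.00201) in wild-type pups, and Scarb1, the receptor for high-density lipoprotein, fell by 0.80 (SE 0.17, adjusted p = 0.00341) in Fgf10+/- pups and 0.95 (SE 0.17, adjusted p = 0.00141) in wild-type pups. Axl, a receptor for apoptotic cells, fell by 0.41 (SE 0.11, adjusted p = 0.0142) in Fgf10+/- pups and 0.74 (SE 0.11, adjusted p = 0.000402) in wild-type pups. Of 17 macrophage activation genes 3 rose in Fgf10+/- pups and 2 in wild-type pups. That is not far from the shares of all tested genes that rose, 13% in Fgf10+/- pups and 10.3% in wild-type pups. Among the 17, Lgals3 (galectin-3) rose by 1.64 (SE 0.26, adjusted p = 0.000414) in Fgf10+/- pups and 1.12 (SE 0.26, adjusted p = 0.0076) in wild-type pups. The chemokine gene Ccl17 rose by 1.08 (SE 0.24, adjusted p = 0.00493) in Fgf10+/- pups and 1.78 (SE 0.24, adjusted p = 0.000208) in wild-type pups. Of 19 growth factor and regulator genes, 3 rose and 1 fell in Fgf10+/- pups and 4 rose in wild-type pups, where Irf8, a myeloid transcription factor, rose by 0.69 (SE 0.14, adjusted p = 0.0037). In Fgf10+/- pups Irf8 did not pass but was also higher, by 0.29 to 0.50 over the alternatives, with a call in 6 of 25. The genotype by oxygen test did not pass for Irf8. In normoxia Cebpa, another myeloid and epithelial factor, was lower in Fgf10+/- pups, 8.03 against 8.86 in wild type (adjusted p = 0.0132), a call held in 23 of 25 alternatives and lost without wild-type normoxia replicate 1 (adjusted p = 0.0611) and in a fit of only the groups compared (adjusted p = 0.0825).

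**Figure D4:**
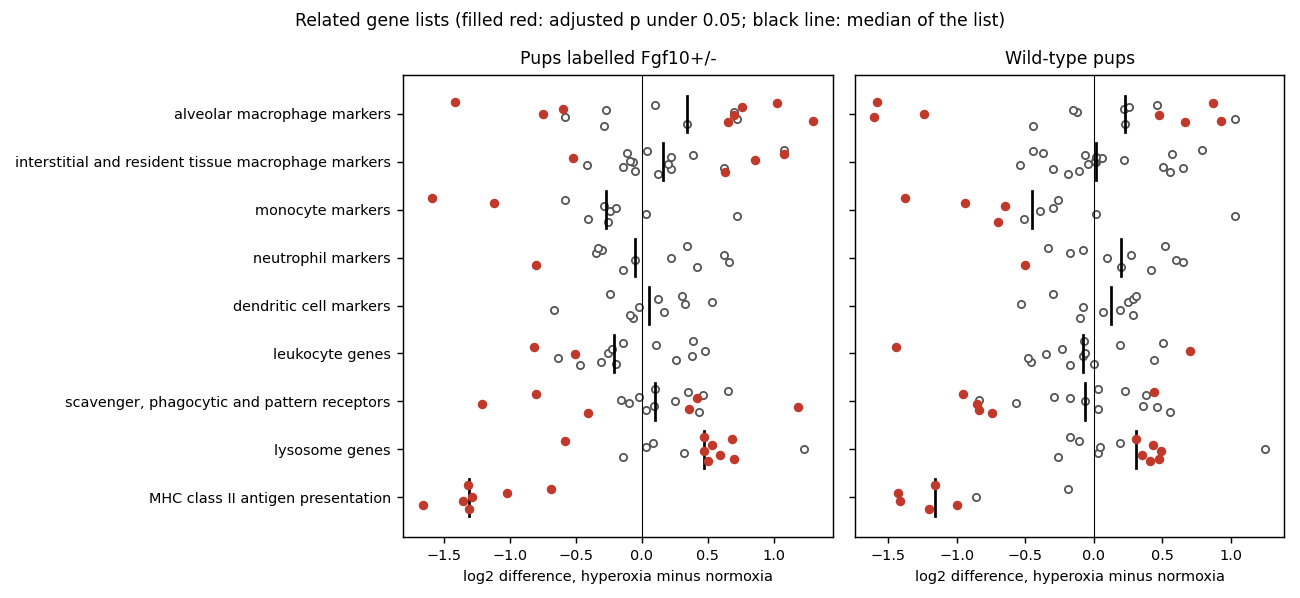
Log2 differences between hyperoxia and normoxia for the genes of 9 related lists, in Fgf10+/- pups (left) and wild-type pups (right); each point is 1 gene, filled red where the adjusted p is under 0.05, and the black line is the median of the list. MHC class II genes lie to the left of 0, lysosome genes mostly to the right, and alveolar macrophage markers on both sides.

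The genes with the profile most like that of Marco over the 16 arrays were Gdf15, Gsta2 and Esyt3, with root-mean-square differences of the centred log2 values of 0.35, 0.36 and 0.38, where the standard deviation of Marco itself was 1.05. For Cd14 they were Lgals3 (0.25), Akr1b8 (0.32) and Hp (0.32), at a standard deviation of 0.85. The genes nearest to Csf2rb were Ccdc88b (0.19), Fpr2 (0.20) and Pilra (0.20), at 0.44. Those nearest to Msr1 were Ppil6 (0.34), Cldn10 (0.35) and Dydc2 (0.36), at 0.64, and those nearest to Cd68 were Rad51ap2 (0.43), Smpd5 (0.43) and Abt1 (0.44), at 0.67. Csf2ra, Itgax, Mrc1 and Csf1r varied less than the median gene, whose standard deviation was 0.38, and were not matched.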

How the data were processed

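Whole lung homogenates were measured in 16 samples. Per the labels, total RNA was isolated with a miRNeasy kit, and a single-colour QuickAmp kit was used for amplification and Cy3 labelling. The deposited values are log2 intensities per array feature. Their array medians nearly coincide, so they were read as quantile normalized, although no label says so, and nothing states the background correction or the scan batch. Features were named through the platform annotation and RefSeq accessions of GRCm38.p6: 31465 features name 1 gene, 0 name several and 31511 name none, with 29036 updated by accession, 2075 by current symbol, 349 by synonym and 5 kept.

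A feature entered if at least 4 of 16 arrays had it over the array's 25th percentile and none was missing (33 missing values in the table), and a gene was its kept feature with the highest mean. limma 3.58.1 in R 4.3.3 fitted 1 mean per group over all 16 arrays (12 residual and 2.129 prior degrees of freedom) with two-sided contrasts of hyperoxia and normoxia within a genotype, of the genotypes within an oxygen level, and of the responses to oxygen between genotypes. Adjusted p-values of the main fit are Benjamini-Hochberg over 20166 genes, called under 0.05. Those of further features of a gene were adjusted over all kept features. Those of an alternative were adjusted over the genes it tested (15114 with the filter at the 50th percentile). The steps were tested on simulated data.

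The 9 genes and the lists were chosen with earlier results of these data known. All 9 are named; of each list, up to 4 genes with the smallest p in a hyperoxia comparison, list genes called between genotypes, and for genes more variable than the median the 3 with the nearest profile. Alternatives covered the filter, the feature rule, normalization, limma options, array weights, the groups fitted, replicate number as a block and each array left out.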

Additional observations from a re-analysis of the deposited data

Results flagged for a closer look

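Over the 9 genes and genes chosen from the related lists, 44 in all, and 4 groups, 176 sets of 4 arrays were searched for an array far from the other arrays of its group, by Dixon's ratio of the gap to the range at its 95% critical value. Chance alone marks about 1 in 20 sets, and 7 were marked. Marco was lowest in Fgf10+/- normoxia replicate 4 (7.95, ratio 0.899). Cd14 was highest in Fgf10+/- hyperoxia replicate 1 (10.39, ratio 0.903). Csf2 was highest in wild-type hyperoxia replicate 2 (8.19, ratio 0.831). Among the marker genes, Ear2 was highest in wild-type hyperoxia replicate 4 (11.82, ratio 0.903), Cidec was highest in Fgf10+/- normoxia replicate 4 (5.69, ratio 0.831), and Plet1 was lowest in Fgf10+/- hyperoxia replicate 1 (10.3, ratio 0.864). Axl was lowest in wild-type normoxia replicate 4 (9.95, ratio 0.837), the array with the raised muscle genes.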

How the results depend on the processing

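Marco and Cd14 passed in 25 of 25 alternatives in both genotypes, Marco with differences of 1.81 to 2.19 in Fgf10+/- and 1.58 to 2.00 in wild type. Csf2ra passed in 18 of 25 in Fgf10+/- (adjusted p 0.00565 to 0.0791). Msr1 passed in Fgf10+/- without hyperoxia replicate 4 (1.14, adjusted p = 0.0314). Csf1r passed in wild type in 3 of 25, and Csf2rb in Fgf10+/- was -0.13 when a gene's features were averaged. Averaging also turned the lysosome gene Ctsd under hyperoxia in wild type (0.48 otherwise) to -0.04 and the leukocyte gene Itgam under hyperoxia in Fgf10+/- (-0.51 otherwise) to 0.05; the cause was not tested. Counts over all genes between genotypes depended most on the settings. In hyperoxia 83 genes passed, against 126 with a filter at the 50th percentile, 223 with limma's trend and robust options, 37 with the replicate block, 13 to 80 with 1 array left out, and 0 in limma fitted to only the groups compared (1825 at an unadjusted p under 0.05). In normoxia 145 passed, against 283 with that filter, 433 with trend and robust, 306 with array weights, 94 with the mean of features, 44 to 292 with 1 array left out (292 without wild-type normoxia replicate 4), and 0 with only the groups compared (2240 at an unadjusted p under 0.05). The genotype by oxygen test gave 0 to 1 with 1 array left out. Same-numbered arrays deviated together with r of -0.029 to 0.087, so the arrays were not fitted as pairs, although the level of some gene lists went with the number in all 4 groups. With the replicate block the 9 genes gave 3 and 3 calls as before. Having 4 arrays per group and signals near the array median limit Cd68 and Msr1.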

Other observations

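In each of the 4 groups the array numbered 1 had the highest mean of 11 neutrophil markers, 8.64 in Fgf10+/- hyperoxia, 9.03 in Fgf10+/- normoxia, 8.60 in wild-type hyperoxia and 8.77 in wild-type normoxia. The same arrays had the highest mean of 14 leukocyte genes in their groups (9.95, 9.95, 9.62 and 9.86 in that order). The array numbered 4 had the highest mean of 7 fibroblast markers in each group (12.04, 12.35, 11.85 and 12.25 in that order of groups) and the lowest mean of 9 epithelial markers (11.88, 11.53, 12.03 and 11.82). The labels do not say what the numbers mark.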
